A study of Homo sapiens with 6 samples.

Results

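The nuclear-encoded subunits of the oxidative phosphorylation complexes were compared between YAPC cells with induced GLI2 and YAPC cells with an empty vector. Members were the rows of the expression table named NDUFA, NDUFB, NDUFC, NDUFS or NDUFV with a number (without the NDUFAF assembly factors), NDUFAB1, SDHA to SDHD, UQCR, COX4 to COX8 or ATP5, without pseudogene names and without a hyphen, with the row of highest mean kept for each name. This gave 85 members of 25442 genes, of which 38 belong by name to complex I, 4 to complex II, 9 to complex III, 17 to complex IV and 17 to complex V. YAPC is a human pancreatic cancer line that served in the study as a model of the classical subtype, and GLI2 is a transcription factor of the Hedgehog pathway. The 6 RNA-seq libraries were 3 of YAPC-iEV cells, which carried the empty pRetroX-Tight-Puro vector, and 3 of YAPC-iGLI2 cells, which carried the same vector with GLI2. All 6 were made from cells kept in doxycycline (Dox) for 6 days, so the drug was shared by both groups and cells without it were not part of the comparison. The labels do not say whether the libraries of a group came from separate cultures, and p-values measure the spread between these libraries, which may be technical.

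Oxidative phosphorylation takes place in the inner mitochondrial membrane. Complex I (NADH dehydrogenase) and complex II (succinate dehydrogenase) pass electrons through coenzyme Q to complex III (cytochrome bc1 complex) and on to complex IV (cytochrome c oxidase), which hands them to oxygen. Complexes I, III and IV pump protons as they do so, and complex V (ATP synthase) makes ATP as the protons flow back. Most subunits are encoded in the nucleus and imported, and a core set of complexes I, III, IV and V is encoded by mitochondrial DNA. The mitochondrially encoded subunits were not analysed here, because the table used has no row on the mitochondrial chromosome.

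Values were FPKM, which divides the fragments of a gene by its length and by the size of the library, and levels of different genes are compared below on that scale only. How many reads stood behind a value is not known, and counting error is left out for that reason. FPKM summed to 981344 to 1082687 per library in iEV and 803149 to 889559 in iGLI2, and an entry of a short RNA gene, MIR4461, held much of it, averaging 447194 and 313172 FPKM. GLI2 was at 0.466, 0.412 and 0.344 FPKM in iEV replicates 1, 2 and 3 and at 94.5, 207 and 195 FPKM in iGLI2 replicates 1, 2 and 3, so every library held the GLI2 level of its label. EPCAM, CDH1 and KRT19, which mark epithelial cells, were at no less than 396, 51.0 and 521 FPKM in any library, while KRT8 and KRT18 were listed at 0 in all 6, which can be a failed estimate. The 6 fibroblast markers summed to 1.36 to 1.57 FPKM in iEV and 2.31 to 3.02 FPKM in iGLI2, nearly all of it COL1A1 with DCN at 0 throughout. The 3 leukocyte markers summed to 2.82 to 3.31 FPKM over all libraries, nearly all of it CD68 with PTPRC and CD3E near 0, and the 3 endothelial markers to 0.233 to 0.411 FPKM. In bulk libraries, fewer cells of a type and less RNA per cell cannot be told apart.

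Many of the members were lower in iGLI2 cells, and none passed as higher. Of the 85 members, 77 averaged 1 FPKM or more and were tested on log2(FPKM + 1) with limma, two-sided, with Benjamini-Hochberg adjustment over all 12493 genes tested and a threshold of 0.05. On this scale fold changes of low genes are understated. Lower levels in iGLI2 were called for 23 of the 77 (29.9%), against 11.8% of all genes tested, and higher levels for 0, against 10.1% of all genes tested. In either direction 21.9% of all genes tested were called. At an unadjusted p under 0.05, 36 members were lower and 0 higher. The log2 fold change was below 0 in 69 of the 77 tested members, with a median of -0.23 against -0.015 over all genes tested, and it ran from -0.96 (ATP5G1) to 0.20 (NDUFV3). The called members lay between -0.96 and -0.22 on the log2 scale, so most of the differences were small. The 3 iGLI2 libraries were all below the 3 iEV libraries in 39 of 77 members (50.6%), against 22.8% of all genes tested. They were all above in 1 member (NDUFB6), against 2399 of the 12493 genes tested. With 3 libraries in each group, an exact two-sided permutation test has 0.1 as its smallest p, and calls on single genes therefore came from limma.

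**Figure D1:**
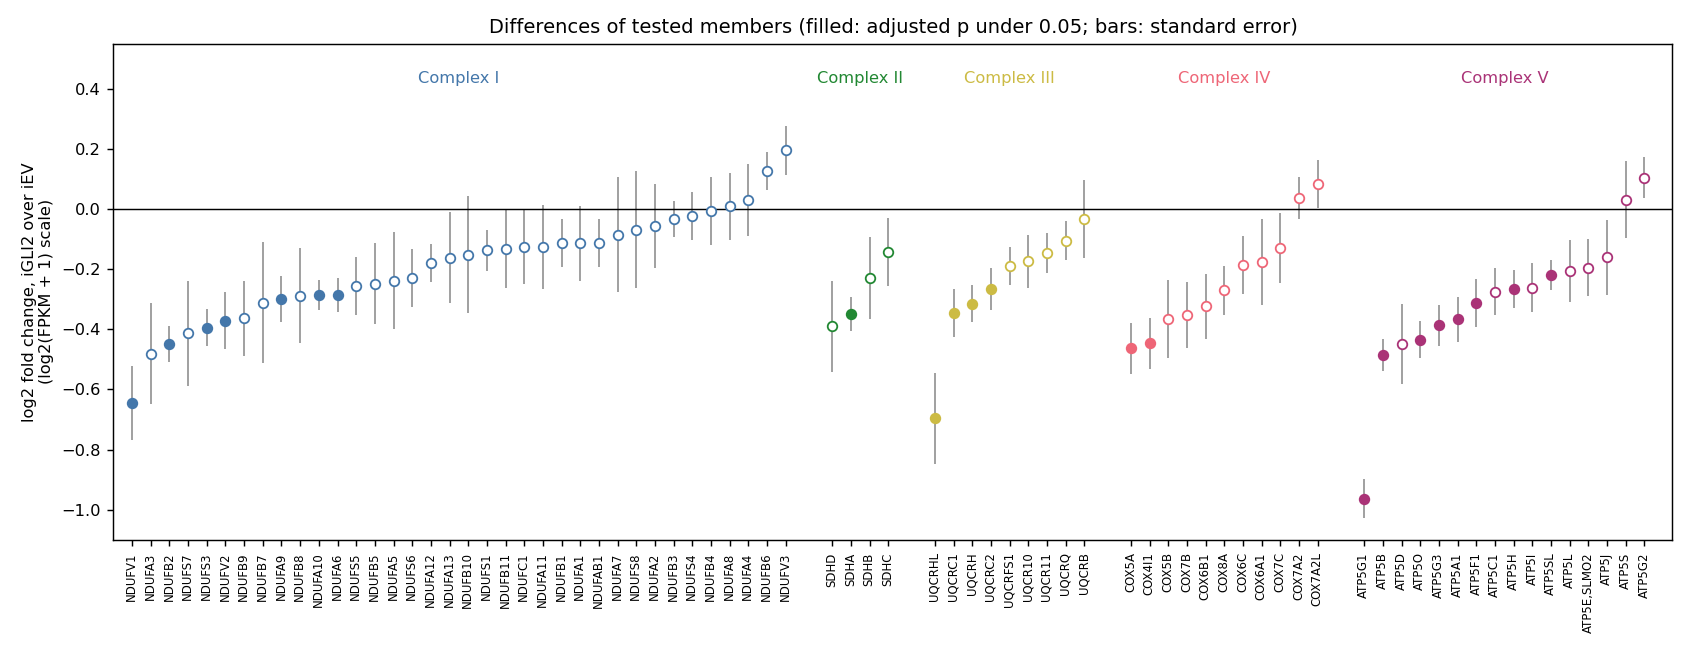
Log2 fold change (iGLI2 over iEV, log2(FPKM + 1) scale, vertical axis) of 76 tested members, sorted within complexes I to V, with standard errors as bars and filled points for an adjusted p under 0.05 (limma). Of the 76 points 68 lie below 0, all 22 filled points are among them, and ATP5G1 is the lowest at -0.96.

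The members are abundant transcripts, with a median level of 142 FPKM against 11.4 FPKM over all genes tested. Of the 876 genes that averaged 100 FPKM or more, 123 were called lower, and their median log2 fold change was -0.098. The 47 members in that range had a median of -0.23, and 11 of them (23.4%) were called lower. Called members had a median level of 95.5 FPKM and those not called 158 FPKM. The longest annotated transcript had a median of 2317 bases in the called members and 1339 bases in the others, with a GC content of 46.9% and 47.2%. Whether transcript length plays a part in which members were called was not tested beyond the fit with its trend removed. In that fit 28 of 76 members (36.8%) were called lower. Calls over all genes rose too, to 3446 in either direction (44.8% of them higher) from 2742 in the main fit. Genes without an annotated length and GC content were not part of that fit, so these counts are over different sets of genes. The share of all genes called lower in it is not given here, and the 36.8% of members therefore has no background beside it.

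**Figure D2:**
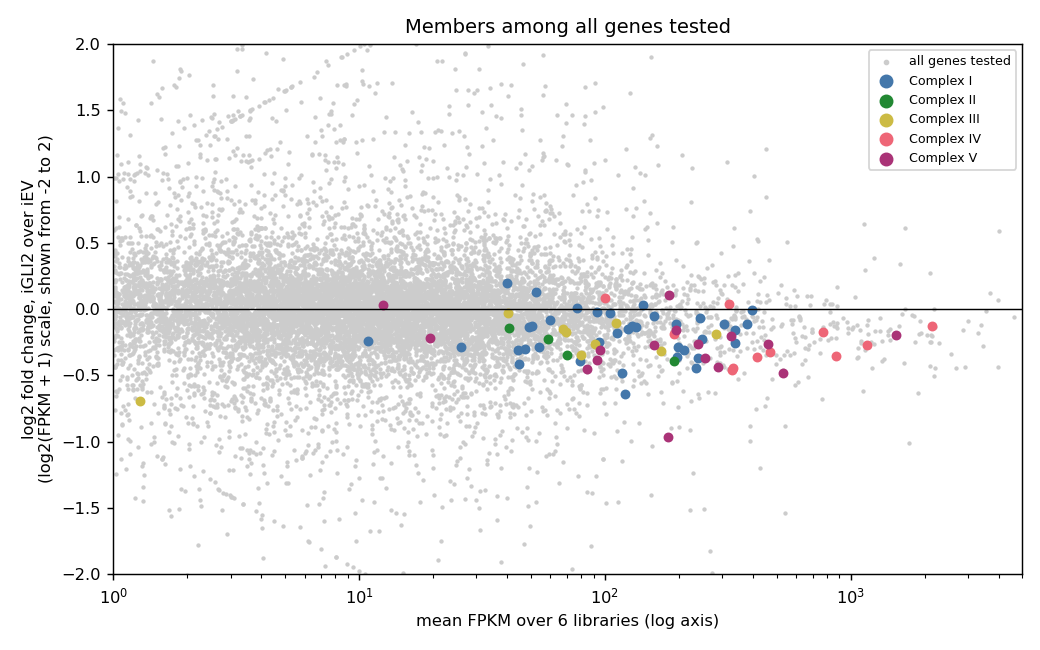
Log2 fold change (vertical axis, log2(FPKM + 1) scale) against mean FPKM over the 6 libraries (log axis) for all 12493 genes tested in grey and the 77 tested members in the colour of their complex. Members gather at high levels (median 142 FPKM) and mostly just below 0, with a median of -0.23.

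Scaling between libraries mattered for how many members were called. With small RNA genes left out and each library rescaled to the mean total, 15 members were called lower (19.5%), against 10.0% of all genes in that fit, and 1 member (NDUFV3) was called higher, against 14.7% of all genes. Over all genes, 46.0% of the calls were higher as deposited and 59.4% after rescaling. The median over members was then -0.15, against 0.056 over all genes, and 63 of 77 members were below 0. The median deviation of the members from their own means over the 6 libraries was 0.090, 0.15 and 0.11 in iEV replicates 1, 2 and 3 and -0.20, -0.093 and -0.089 in iGLI2 replicates 1, 2 and 3. After rescaling it was 0.088, 0.090 and 0.071 against -0.077, -0.085 and -0.098. For the members, the libraries of the groups thus stood apart under either scaling. Over all genes tested, the medians overlapped as deposited. After rescaling those of all genes stood apart too, in the other direction. They were then -0.0045, -0.044 and -0.030 in iEV and 0.060, 0.016 and 0.0008 in iGLI2. By complex, the medians of the members stood apart as deposited in complexes I to V. After rescaling they overlapped in complex II alone, where iGLI2 replicate 1 (0.054) lay above iEV replicate 3 (0.043).

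**Figure D3:**
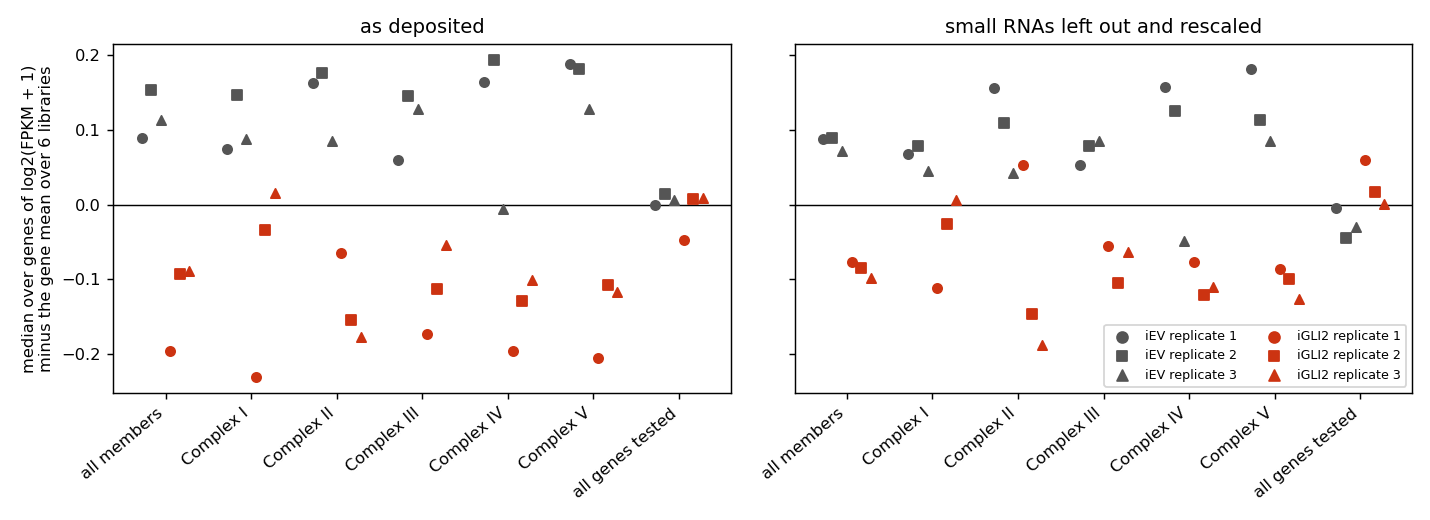
Median over genes of log2(FPKM + 1) minus each gene's mean over 6 libraries (vertical axis), for all tested members, each complex and all genes tested, as deposited (left) and with small RNA genes left out and libraries rescaled (right), with a symbol per replicate, grey for iEV and red for iGLI2. For all members the iEV libraries lie between 0.090 and 0.15 and the iGLI2 libraries between -0.20 and -0.089 as deposited.

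iGLI2 replicate 1 stood apart from the other two iGLI2 libraries. Its GLI2 level was 94.5 FPKM against 207 and 195 FPKM. Across the 76 tested members with an annotated transcript, its deviation from the iGLI2 group mean went down with the GC content of the transcript (Spearman's rho = -0.66), while those of replicates 2 and 3 went up (0.57 and 0.65). These deviations sum to 0 for each gene, so the 3 values are not independent, and over all genes they were -0.51, 0.42 and 0.51. The 38 members of higher GC included 11 called and the 38 of lower GC 12. Without iGLI2 replicate 1, 30 members were called lower (39.0%), against 15.2% of all genes, 1 was called higher (NDUFV3), and the median over members was -0.22. The median was thus nearly the same without the library, and 21 of the 23 calls were kept.

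**Figure D4:**
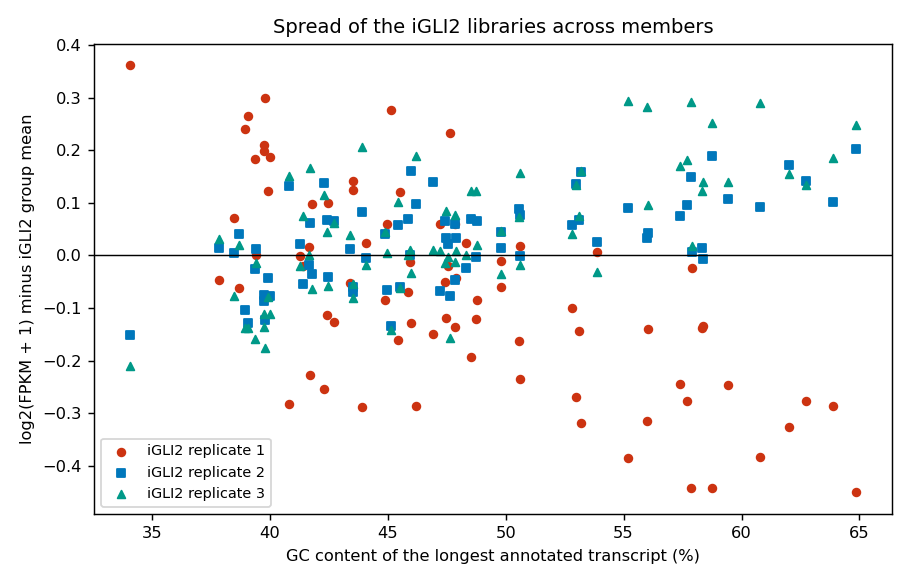
Deviation of each iGLI2 library from the iGLI2 group mean (log2(FPKM + 1), vertical axis) against the GC content of the longest annotated transcript (horizontal axis, %), with a point per library for each of 76 tested members. iGLI2 replicate 1 falls from left to right (rho = -0.66), and replicates 2 and 3 rise (0.57 and 0.65).

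Complex I had 37 tested members, of which 8 were lower and 0 higher, with a median log2 fold change of -0.16, which was -0.084 in the rescaled fit. The arm that takes electrons from NADH holds the catalytic subunits, and the 7 core subunits in the list had 4 calls and a median of -0.37. The 29 supernumerary subunits, which surround the core, had 4 calls and a median of -0.15. The difference between core and supernumerary subunits was not tested, since genes are not replicates. By module, 2 of 7 members of the N module (NADH oxidation), 2 of 5 of the Q module (coenzyme Q reduction) and 4 of 23 of the membrane arm and others were called.

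NDUFV1 carries the FMN cofactor that accepts electrons from NADH, and it had the largest difference in complex I. It was at 136, 152 and 156 FPKM in iEV and 79.04, 101 and 104 FPKM in iGLI2, given here and below in the order of replicates 1, 2 and 3. All 3 iGLI2 libraries lay below the lowest iEV library, with iGLI2 replicate 1 the lowest. NDUFV1 fell from 148 ± 10.7 to 94.6 ± 13.5 FPKM (SD, n = 3 each), or by 0.64 ± 0.12 on the log2 scale (± standard error, limma adjusted p = 0.0161). NDUFV2, an iron-sulfur subunit beside it, was at 239, 270 and 303 FPKM in iEV and 208, 211 and 205 FPKM in iGLI2, and fell by 0.37 on the log2 scale (limma adjusted p = 0.0405). The groups did not overlap, and the iEV libraries were the more spread. NDUFV3, a small accessory subunit of the same module named after its values were seen, was at 39.2, 35.8 and 36.1 FPKM in iEV and 39.1, 42.5 and 46.5 FPKM in iGLI2. Its log2 fold change of 0.20 did not pass (limma adjusted p = 0.148), and its groups overlapped by iGLI2 replicate 1, while it passed in the rescaled fit and without that library, as given above. The ratio of NDUFV1 to NDUFV3 within each library was 3.46, 4.23 and 4.31 in iEV and 2.02, 2.38 and 2.23 in iGLI2, with no overlap (exact permutation p = 0.1, two-sided, the smallest possible).

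Among the core subunits of the Q module, NDUFS3 was at 91.6, 86.6 and 92.2 FPKM in iEV and 65.9, 71.6 and 67.6 FPKM in iGLI2. The groups were well apart, and NDUFS3 fell by 0.39 on the log2 scale (standard error 0.062, limma adjusted p = 0.00839). NDUFS7 and NDUFS8, iron-sulfur subunits of the same module named after their values were seen, had log2 fold changes of -0.41 and -0.068 that did not pass, and in each of them iGLI2 replicate 1 was the lowest library. NDUFS8 was at 255, 258 and 230 FPKM in iEV and 173, 262 and 289 FPKM in iGLI2, so that iGLI2 replicates 2 and 3 lay above every iEV library.

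Of the supernumerary subunits, NDUFB2 was at 277, 268 and 269 FPKM in iEV and 207, 190 and 199 FPKM in iGLI2, and fell by 0.45 on the log2 scale (standard error 0.060, limma adjusted p = 0.00478). NDUFA10 was at 28.2, 28.9 and 28.9 FPKM against 23.2, 23.4 and 23.5 FPKM and fell by 0.29, with replicates close together in each group. NDUFA6 (58.4, 60.1 and 58.6 against 50.4, 46.7 and 47.8 FPKM) fell by 0.28 and NDUFA9 (52.6, 53.2 and 51.0 against 46.8, 40.6 and 39.9 FPKM) by 0.30. Limma adjusted p-values of these 3 were 0.0119, 0.0182 and 0.0419, and in each the groups did not overlap. NDUFB4 had the highest mean of the tested members of complex I, at 397 ± 16.6 against 398 ± 54.7 FPKM (SD, n = 3 each), and its difference on the log2 scale was -0.0054 with a 95% interval from -0.28 to 0.27. NDUFA5 had the lowest mean of those tested, with 11.8 ± 0.793 and 10.0 ± 2.53 FPKM (SD, n = 3 each), and overlapped. NDUFB6, the tested member in which all iGLI2 libraries lay above all iEV libraries, was at 52.3, 51.3 and 47.2 FPKM in iEV and 55.6, 54.3 and 54.98 FPKM in iGLI2, and did not pass (log2 fold change 0.13, limma adjusted p = 0.202). NDUFA4, named for complex I and now counted as a subunit of complex IV, was at 152, 146 and 124 FPKM in iEV and 163, 141 and 128 FPKM in iGLI2, overlapping, with a log2 fold change of 0.031. Its paralogue NDUFA4L2, which is induced by hypoxia in other cells, was between 0.0407 and 0.452 FPKM and was not tested.

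Complex II, which links the TCA cycle to the respiratory chain, had 4 members, 1 called lower, and a median of -0.29. SDHA, the flavoprotein that oxidises succinate, was at 78.4, 78.2 and 78.4 FPKM in iEV and 58.8, 61.9 and 63.3 FPKM in iGLI2. The iEV libraries were nearly equal, the groups were far apart for that spread, and SDHA fell by 0.35 on the log2 scale (standard error 0.056, limma adjusted p = 0.0091). SDHB, the iron-sulfur subunit, was at 58.7, 65.8 and 64.1 FPKM against 43.6, 56.6 and 61.8 FPKM, with a log2 fold change of -0.23. SDHC and SDHD, the membrane anchors, had log2 fold changes of -0.14 and -0.39. SDHD was at 237, 221 and 192 FPKM against 203, 151 and 146 FPKM, and SDHC at 45.2, 41.9 and 41.2 FPKM against 45.6, 36.6 and 34.6 FPKM. SDHB, SDHC and SDHD overlapped between groups and did not pass (limma adjusted p = 0.291, 0.432 and 0.126).

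In complex III, 4 of 9 members were lower and all 9 log2 fold changes were below 0, with a median of -0.19, which was -0.11 in the rescaled fit. The core proteins UQCRC1 and UQCRC2 form the matrix side of the complex. UQCRC1 was at 88.7, 89.5 and 90.5 FPKM in iEV and 63.8, 71.0 and 76.6 FPKM in iGLI2 and fell by 0.35 on the log2 scale (limma adjusted p = 0.0292). UQCRC2 was at 93.5, 101 and 105 FPKM against 79.3, 85.2 and 84.0 FPKM and fell by 0.27 (limma adjusted p = 0.0422). UQCRH, the hinge protein at cytochrome c1, was at 179, 192 and 193 FPKM against 150, 156 and 147 FPKM and fell by 0.31 (limma adjusted p = 0.0172), so the groups were apart in all 3 of these genes. UQCRHL, a near copy of UQCRH on chromosome 1, was at 1.34, 2.15 and 1.99 FPKM against 0.559, 0.906 and 0.743 FPKM, and fell by 0.70 on the log2 scale (limma adjusted p = 0.0242). Its value is uncertain, because fragments of UQCRH may have been assigned to it. It averaged 1.83 FPKM in iEV and 0.736 FPKM in iGLI2, so it reached the 1 FPKM filter only through iEV. With a filter of 5 FPKM, which leaves UQCRHL out, 3 members of complex III were called. Without UQCRHL, 22 of 76 members were called lower with a median of -0.23. UQCRFS1, the Rieske iron-sulfur protein and the most abundant member of the complex, was at 287, 312 and 310 FPKM in iEV and 256, 268 and 273 FPKM in iGLI2, apart, with a log2 fold change of -0.19 that did not pass (limma adjusted p = 0.0882).

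Complex IV had 11 tested members, of which 2 were lower and 0 higher, with a median of -0.27. That median was -0.12 under quantile normalization and -0.14 with the length and GC trend removed. COX4I1 and COX5A are among the earliest nuclear subunits to join the mitochondrially encoded core. COX5A was at 387, 383 and 373 FPKM in iEV and 247, 287 and 296 FPKM in iGLI2 and fell by 0.46 on the log2 scale (standard error 0.085, limma adjusted p = 0.0143). COX4I1 was at 370, 410 and 371 FPKM against 256, 293 and 297 FPKM and fell by 0.45 (standard error 0.085, limma adjusted p = 0.0161). In both genes the groups were far apart and iGLI2 replicate 1 was the lowest. COX6B1 (547, 556 and 461 against 371, 441 and 437 FPKM) and COX8A (1389, 1265 and 1160 against 1034, 1056 and 1066 FPKM) were apart too, at -0.32 and -0.27, without passing. COX6A1 was at 844, 872 and 723 FPKM against 589, 786 and 796 FPKM and overlapped. COX7C had the highest level of all members, at 2344, 2222 and 2123 FPKM in iEV and 2410, 1896 and 1853 FPKM in iGLI2, where replicate 1 exceeded every iEV library and replicates 2 and 3 were below them. COX7A2 (315 ± 13.4 and 324 ± 19.8 FPKM) and COX7A2L, a factor of respiratory supercomplexes (97.0 ± 5.28 and 103 ± 7.95 FPKM, SD, n = 3 each), overlapped, with log2 fold changes of 0.037 and 0.084 and 95% intervals from -0.14 to 0.21 and from -0.11 to 0.28.

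The isoforms of complex IV known from particular tissues were at or near 0. COX4I2, COX6A2, COX7B2 and COX8C were listed at 0 in all 6 libraries. COX7A1 was between 0 and 0.0708 FPKM. COX6B2, the isoform known from testis, was at 0.157, 0.138 and 0.0600 FPKM in iEV and 0.343, 0.291 and 0.327 FPKM in iGLI2, so the groups did not overlap at this very low level, and it was not tested because its mean was under 1 FPKM. With ATP5L2, between 0 and 0.171 FPKM, and NDUFA4L2, these are the 8 members left out of the test.

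Complex V had 8 of 16 tested members lower, 0 higher and a median of -0.27. In the rescaled fit 5 were lower. ATP5B, the catalytic beta subunit of the F1 head, was at 631, 614 and 614 FPKM in iEV and 448, 442 and 437 FPKM in iGLI2. The libraries of each group were nearly equal, and ATP5B fell from 620 ± 10.2 to 442 ± 5.53 FPKM (SD, n = 3 each), or by 0.49 ± 0.054 on the log2 scale (± standard error, limma adjusted p = 0.00255). ATP5A1, the alpha subunit, was at 297, 287 and 279 FPKM against 242, 214 and 213 FPKM and fell by 0.37 (limma adjusted p = 0.0194). The other subunits of the head did not pass, and named after their values were seen, ATP5C1 (gamma) and ATP5D (delta) had log2 fold changes of -0.27 and -0.45 with groups apart (limma adjusted p = 0.0561 and 0.0633). The entry of ATP5E (epsilon) is merged with its neighbour SLMO2 and was at 1717, 1663 and 1514 FPKM against 1276, 1477 and 1530 FPKM, overlapping.

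The stalk and membrane part holds the OSCP, b, d, e, g and F6 subunits. ATP5O, the OSCP that ties the head to the stalk, was at 344, 340 and 314 FPKM in iEV and 250, 245 and 242 FPKM in iGLI2, and fell by 0.43 on the log2 scale (standard error 0.062, limma adjusted p = 0.00607). ATP5F1 (b) was at 112, 111 and 94.96 FPKM against 85.0, 85.7 and 84.1 FPKM, and ATP5H (d) at 261, 256 and 269 FPKM against 205, 224 and 225 FPKM. They fell by 0.31 and 0.27 (limma adjusted p = 0.0407 and 0.0333), with groups apart. ATP5S and ATP5SL match the name rule but are not subunits. ATP5SL, now named DMAC2 and tied to assembly of complex I, was at 20.6, 21.2 and 21.0 FPKM against 17.9, 18.2 and 17.4 FPKM and fell by 0.22 (limma adjusted p = 0.0302). ATP5S, a coupling factor of the lowest level among the tested members of complex V, was at 12.4 ± 1.84 and 12.6 ± 1.41 FPKM (SD, n = 3 each) and overlapped.

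The largest difference of any member was in the genes of subunit c. Subunit c forms the rotating ring of ATP synthase, and ATP5G1, ATP5G2 and ATP5G3 encode the same mature protein behind different import sequences. ATP5G1, on chromosome 17 of hg19 from 46970148 to 46973232, was at 235, 253 and 228 FPKM in iEV and 118, 124.5 and 123 FPKM in iGLI2. The groups were far apart, and ATP5G1 fell from 239 ± 12.9 to 122 ± 3.23 FPKM (SD, n = 3 each), which is 49.0% lower, or by 0.96 ± 0.065 on the log2 scale (± standard error, limma adjusted p = 0.000561). ATP5G3, on chromosome 2 from 176040986 to 176046490, was at 109, 106 and 99.7 FPKM against 84.0, 80.1 and 75.7 FPKM and fell by 0.39 (limma adjusted p = 0.0127). ATP5G2, on chromosome 12 from 54058944 to 54070512, was at 185, 178 and 163 FPKM against 192, 185 and 189 FPKM. Its groups overlapped, because iGLI2 replicate 2 lay just below iEV replicate 1, and its log2 fold change of 0.11 (95% interval from -0.063 to 0.27) did not pass (limma adjusted p = 0.333).

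Within libraries, where scaling cancels, the ratio of ATP5G1 to ATP5G2 was 1.27, 1.42 and 1.40 in iEV and 0.616, 0.672 and 0.650 in iGLI2. ATP5G1 was thus the higher of the pair in every iEV library and the lower in every iGLI2 library (exact permutation p = 0.1, two-sided, the smallest possible). The ratio of ATP5G3 to ATP5G2 was 0.598 ± 0.0125 in iEV and 0.424 ± 0.0196 in iGLI2 (SD, n = 3 each), also apart. The 3 genes summed to 530, 537 and 490 FPKM in iEV and 394, 390 and 387 FPKM in iGLI2. ATP5G1 gave 44.4%, 47.1% and 46.5% of that sum in iEV and 30.0%, 31.9% and 31.7% in iGLI2, while ATP5G2 went from 35.0%, 33.2% and 33.2% to 48.7%, 47.5% and 48.7%. The share of ATP5G3 was between 19.6% and 21.3% in all 6 libraries. Relative to ATP5B, ATP5G1 was at 0.385 ± 0.0233 in iEV and 0.275 ± 0.009997 in iGLI2 (SD, n = 3 each), so it was lower in proportion to the catalytic subunit as well. These ratios and the pair of NDUFV1 and NDUFV3 are among 9 ratios computed and were chosen with the values known.

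**Figure D5:**
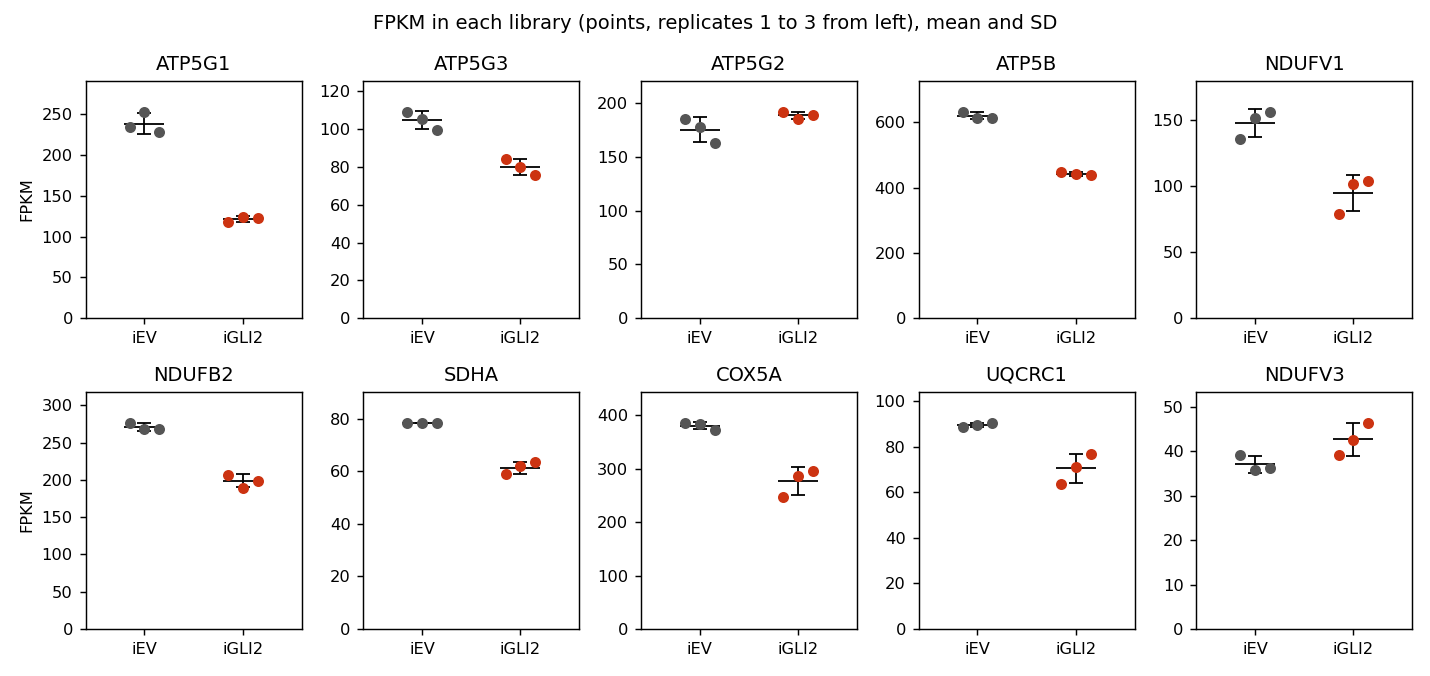
FPKM (vertical axes, from 0) of 10 members in each library, with points for replicates 1 to 3 of iEV (grey) and iGLI2 (red) and the mean and SD as bars. ATP5G1 stands at 228 to 253 FPKM in iEV and 118 to 124.5 FPKM in iGLI2, whereas its paralogue ATP5G2 overlaps between groups.

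The calls differed in how far they rested on single libraries. ATP5G1, ATP5B, ATP5O, NDUFB2, NDUFS3 and SDHA were called lower in all 6 fits that left out 1 library. The largest adjusted p among those fits was 0.00598 for ATP5G1, 0.0211 for ATP5B, 0.0298 for NDUFB2, 0.039 for ATP5O, 0.0416 for NDUFS3 and 0.0493 for SDHA (limma). The log2 fold change of ATP5G1 stayed between -0.9965 and -0.89 under every setting. Of the 23 called members, 14 were called lower under the deposited scaling and every other scaling tried. UQCRHL, which reached the filter only through iEV, is among these 14. The other 9 (ATP5A1, ATP5F1, ATP5H, ATP5SL, NDUFA10, NDUFA6, NDUFA9, NDUFV2 and UQCRC2) kept a negative log2 fold change under every setting and lost the call under at least 1 scaling.

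The nuclear factors NRF1, GABP (of the ETS family) and the ERR receptors are known regulators of oxidative phosphorylation genes, and PGC-1 proteins are coactivators of ERR and NRF1. Letters of their binding motifs were looked for on both strands of the 250 bases before each annotated start in RefSeq (GRCh38.p14, a newer build than the hg19 of the table). The motifs and the windows printed were chosen after the values were seen. Of 85 members 84 were matched to a RefSeq symbol, and 69 had 83 windows, set beside 35116 windows of all genes. GCATGCGC (NRF1) was in 16.9% of member windows and 2.63% of all windows, CCGGAAG (ETS) in 21.7% and 8.52%, AAGGTCA (ERR) in 9.64% and 3.44%, and AAGATGG (YY1) in 7.23% and 3.70%. CCAAT was about as frequent in members as elsewhere, at 32.5% and 32.0%. GACCACCCA, the GLI motif, was in 0 of 83 member windows and in 0.199% of all windows. The last 3 letters of CCGGAAG can be the start of AAGATGG or AAGGTCA, so these may overlap. By gene, the NRF1 letters were near 1 of 19 called members and 12 of 45 tested members not called, the ETS letters near 4 and 13, and the ERR letters near 1 and 6. A match is a description of the letters and not evidence of a site, and no match says nothing of a factor. The 4 windows below show the subunit c pair that moved apart, a called member with ETS letters and a member not called that holds NRF1, ETS and ERR letters. Capitals mark the motif letters listed above, on either strand, and each window ends at the base before the start.
ATP5G1, chr17:48892537-48892786, plus strand: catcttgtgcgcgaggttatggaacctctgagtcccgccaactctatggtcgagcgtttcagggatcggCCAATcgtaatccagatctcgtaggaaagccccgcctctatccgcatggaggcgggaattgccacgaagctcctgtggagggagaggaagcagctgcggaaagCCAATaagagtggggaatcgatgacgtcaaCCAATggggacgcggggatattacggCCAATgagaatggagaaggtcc
ATP5G2, chr12:53676084-53676333, minus strand: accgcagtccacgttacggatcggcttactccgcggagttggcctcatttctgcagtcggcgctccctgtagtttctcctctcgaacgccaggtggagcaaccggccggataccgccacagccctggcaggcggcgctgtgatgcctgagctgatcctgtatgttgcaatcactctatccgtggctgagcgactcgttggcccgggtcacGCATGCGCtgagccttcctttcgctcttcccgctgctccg
NDUFS3, chr11:47578824-47579073, plus strand: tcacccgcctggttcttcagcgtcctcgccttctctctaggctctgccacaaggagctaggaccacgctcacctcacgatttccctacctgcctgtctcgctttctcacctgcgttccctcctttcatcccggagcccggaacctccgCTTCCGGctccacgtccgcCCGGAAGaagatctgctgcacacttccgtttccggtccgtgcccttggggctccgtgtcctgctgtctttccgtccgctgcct
SDHB, chr1:17054033-17054282, minus strand: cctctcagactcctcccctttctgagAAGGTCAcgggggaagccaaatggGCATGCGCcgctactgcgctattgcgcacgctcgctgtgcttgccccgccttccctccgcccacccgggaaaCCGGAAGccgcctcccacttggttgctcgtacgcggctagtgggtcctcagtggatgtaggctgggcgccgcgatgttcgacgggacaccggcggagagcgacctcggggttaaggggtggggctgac
The ATP5G1 window holds 4 copies of CCAAT and no other of these motifs. As many copies of CCAAT are in 0.874% of all windows and in 3 of the member windows. The ATP5G2 window holds the NRF1 letters from 40 to 33 bases before the start, and 2 of the 3 windows of ATP5G2 hold them. CCAAT is also in 2 of those 3 windows, and the printed window is the one without it. The SDHB window holds ERR, NRF1 and ETS letters, which begin 224, 200 and 128 bases before the start.

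The transcripts of these regulators were measured in the same libraries. Of 17 regulators tested, 3 were lower (17.6%, against 11.8% of all genes tested) and 0 higher (against 10.1%). At an unadjusted p under 0.05, limma gave 3 as higher and 4 as lower, and the median log2 fold change was -0.041. PPARGC1A, which encodes the coactivator PGC-1alpha, was at 8.68, 6.96 and 7.47 FPKM in iEV and 4.04, 2.78 and 2.77 FPKM in iGLI2, and fell by 1.06 on the log2 scale (standard error 0.14, limma adjusted p = 0.00476). PPARGC1B, its relative, was at 1.31, 1.48 and 1.57 FPKM against 0.721, 0.550 and 0.531 FPKM and fell by 0.62 (limma adjusted p = 0.0103). All iGLI2 libraries were under 1 FPKM for PPARGC1B, so it reached the 1 FPKM filter only through iEV. The 3 regulators called lower, and their share of 17.6%, include PPARGC1B. ESRRA, which encodes ERRalpha, was at 77.4, 84.2 and 80.4 FPKM against 63.3, 67.6 and 68.0 FPKM and fell by 0.28 (limma adjusted p = 0.0274). In all 3 the groups were apart. MYC was at 78.9, 114 and 102 FPKM against 46.1, 71.9 and 74.4 FPKM, apart, and did not pass (log2 fold change -0.63, limma adjusted p = 0.104). NRF1 was at 5.61 ± 0.0804 and 6.17 ± 0.138 FPKM (SD, n = 3 each), and its log2 fold change of 0.12 did not pass. In NRF1, GABPA, TFB1M and MTERF1 all iGLI2 libraries lay above all iEV libraries, as many regulators as lay below (4 each). The share of regulators below was 23.5%, near the 22.8% of all genes tested, and 2399 of the 12493 genes tested lay above. The other regulators did not pass either, with log2 fold changes of 0.20 for GABPA, -0.036 for GABPB1, 0.26 for GABPB2, 0.025 for YY1, -0.22 for PPRC1 and -0.041 for HCFC1. Those that act on mitochondrial DNA were at -0.041 for TFAM, 0.20 for TFB1M, -0.065 for TFB2M, -0.16 for POLRMT, 0.026 for TEFM and 0.24 for MTERF1. No part of these transcripts in the levels of the members was tested.

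Some subunits and carriers outside the name rule were lower too. CYC1, cytochrome c1 of complex III, was at 157, 175 and 162 FPKM in iEV and 99.4, 125.4 and 125.1 FPKM in iGLI2 and fell by 0.50 on the log2 scale (limma adjusted p = 0.0253). C14orf2, a small subunit of ATP synthase, was at 307, 317 and 318 FPKM against 279, 247 and 243 FPKM and fell by 0.30 (limma adjusted p = 0.0372). Of the 5 genes in this list, 2 were lower and 0 higher (0 higher also at an unadjusted p under 0.05), with a median of -0.22, and CYCS (cytochrome c), ATPIF1 and USMG5 did not pass.

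Few of the assembly factors were called, and these went in both directions. The 5 lists, with 14, 4, 6, 17 and 3 genes tested for complexes I to V, had 4 lower and 2 higher in all. Over all genes tested 11.8% were called lower and 10.1% higher, so these few calls are not read as a trait of the factors. None of 14 factors of complex I and none of 3 of complex V passed the limma threshold, with medians of -0.11 and -0.072, and at an unadjusted p under 0.05 there were 2 higher and 3 lower in complex I and 0 in complex V. In complex II, SDHAF4 was at 9.47, 12.7 and 12.6 FPKM in iEV and 14.9, 19.04 and 19.5 FPKM in iGLI2 and rose by 0.58 (limma adjusted p = 0.0401), 1 of 4 tested. In complex III, TTC19 was at 23.2, 22.8 and 23.3 FPKM against 34.2, 41.5 and 38.7 FPKM and rose by 0.69 (limma adjusted p = 0.00307), while UQCC1 was at 15.6, 17.8 and 19.7 FPKM against 12.7, 12.3 and 13.5 FPKM and fell by 0.43 (limma adjusted p = 0.0251), and the other 4 of 6 did not pass. In complex IV, 3 of 17 (17.6%) were lower and 0 higher (1 higher at an unadjusted p under 0.05). They were COX10, which makes heme O, at -0.40, the copper chaperone COX19 at -0.37, and LRPPRC, which stabilises mitochondrial messenger RNA, at -0.23 (limma adjusted p = 0.0151, 0.0177 and 0.0403).

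Genes of other mitochondrial functions were likewise called lower and not higher. At an unadjusted p under 0.05, limma gave 1 of them as higher, a ribosomal protein gene. In the TCA cycle and pyruvate dehydrogenase list, 5 of 17 were lower and 0 higher, with a median of -0.24. SUCLG1, a subunit of succinyl-CoA ligase, was at 63.8, 70.0 and 68.0 FPKM in iEV and 41.7, 47.7 and 49.0 FPKM in iGLI2 and fell by 0.54 on the log2 scale (limma adjusted p = 0.00781), and PDHA1 and SUCLA2 fell by 0.35 and 0.37. Of 6 carriers and porins tested, 2 were lower and 0 higher. VDAC1, the outer membrane porin, and SLC25A5, an ADP/ATP carrier, fell by 0.32 and 0.27 (limma adjusted p = 0.0106 and 0.0184), and the median was -0.17. Of 74 mitochondrial ribosomal proteins, 13 were lower and 0 higher, with a median of -0.16. MRPL23 was at 65.6, 78.3 and 65.8 FPKM against 25.9, 37.8 and 41.8 FPKM and fell by 0.99 (limma adjusted p = 0.0154), while MRPL17 and MRPL35 fell by 0.46 and 0.30. Of 24 import genes, 5 were lower and 0 higher, with a median of -0.092, TIMM13, TIMM10B and TOMM40 (falls of 0.41, 0.57 and 0.43) among them. The shares called lower were 29.4% for the TCA cycle list, 33.3% for carriers and porins, 17.6% for ribosomal proteins and 20.8% for import, against 11.8% of all genes and 29.9% of the members.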

How the data were processed

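Total RNA of 6 YAPC samples was made into libraries with an Illumina TruSeq kit. Per the labels and the study's methods, the authors used Trimmomatic to trim, TopHat2 to place reads on hg19 and Cuffdiff 2.1.1. The deposited table names no unit, and its values were read as FPKM from their form. Gene annotation, scaling between libraries and handling of reads with several matches are not given in the sources used here, and they could move near-identical genes. Of 27024 entries, 25442 genes remained on primary chromosomes with 1 entry per name. Genes averaging 1 FPKM or more were tested as log2(FPKM + 1) in limma 3.58.1 (R 4.3.3), using an intensity trend. Alternatives were 4 scalings, other pseudocounts and filters, blocks, a length and GC correction and each library left out. On simulated data for this comparison (12493 genes), 188 of 200 changed genes were recovered (90% of those changed 2-fold, 98% of those changed 4-fold), with 5 false calls. The noise was drawn independently at the spread that the fit estimated. The planted changes were larger than the difference of any tested member, so recovery at the sizes seen in the members was not measured. The text names the called members except 1 that is not reported here, the members of highest and lowest level in each complex, paralogue sets, SDHA to SDHD, the 3 genes of smallest p per direction in other lists, all regulators and GLI2. Members and lists were chosen with earlier results of these data known. Python 3.11.15 and matplotlib 3.10.9 were used for tables and plots.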

Additional observations from a re-analysis of the deposited data

How the results depend on the processing

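The labels number replicates in both groups and do not say whether the numbers pair the samples. Deviations of same-numbered libraries correlated at 0.204, 0.0919 and 0.0276. Differently numbered libraries correlated between -0.193 and 0.117, above 0 only for iEV replicate 2 with iGLI2 replicate 3 (0.117). These values do not settle whether the numbers pair the samples. With the replicate block, 3928 genes and 29 members were called (all lower, all 23 among them), with 2 of complex II and 60 in the other mitochondrial lists against 36. With the number in the sample code as block, 2084 genes and 17 members were called, 5 of complex I and 23 of the other lists.

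With each library left out, the median over members stayed between -0.26 and -0.22, while called genes ran from 1223 to 3753 and members lower from 6 to 30 (higher 0 to 1). The counts were lowest without iEV replicate 2, with 9 members lower without iEV replicate 3, 9 without iGLI2 replicate 2 and 12 without iGLI2 replicate 3, and highest without iGLI2 replicate 1. Ranges were 2 to 11 for complex I, 1 to 3 for complex II, 0 to 4 for complex III, 0 to 4 for complex IV, 3 to 9 for complex V and 7 to 50 for the other lists. Leaving out a library leaves fewer samples.

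Rescaling without small RNA genes gave 15 members lower and 1 higher, 5 of complex I, 5 of complex V and a median of -0.15, and quantile normalization also moved the median to -0.15. With the length and GC trend removed, 3446 genes were called, and complex IV had 4 calls and the other lists 56. Without a filter on low values 1 member, COX6B2, was called higher. At an adjusted p under 0.01, 1095 genes and 6 members were called, 2 of complex I, 0 of complex III, 0 of complex IV, 3 of complex V and 6 of the other lists. The cause of the other changes was not tested. No called gene named in the text changed sign under any setting in which it was tested. The depth of the libraries is unknown, which limits what small differences can show.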

Other observations

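Entries beside the members gave further values. The merged entry of NDUFC2 with KCTD14 was at 69.6, 69.3 and 56.9 FPKM in iEV and 69.8, 71.9 and 69.1 FPKM in iGLI2, with a log2 fold change of 0.11 that did not pass. The merged entry of ATP5J2 with PTCD1 was at 474, 486 and 477 FPKM against 367, 439 and 451 FPKM, apart, with a log2 fold change of -0.20 that did not pass either (limma adjusted p = 0.185). Pseudogene entries were low, with SDHAP1 and SDHAP3 at means of 1.74 to 2.22 FPKM and ATP5EP2 at 0.846 and 0.774 FPKM.

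Of the epithelial markers, EPCAM was at 418, 401 and 396 FPKM in iEV and 526, 521 and 523 FPKM in iGLI2 and rose by 0.37 on the log2 scale (limma adjusted p = 0.00709). CDH1 rose by 0.37 as well (limma adjusted p = 0.0169). KRT19 had means of 621 and 548 FPKM, with overlapping groups and a log2 fold change of -0.18 that did not pass (limma adjusted p = 0.195).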
